A study of Mus musculus with 4 samples.

Results

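The genes described are 10 genes of microglia and of the complement pathway, Cx3cr1, Csf1r, Aif1, C1qa, C1qb, C1qc, Trem2, Tyrobp, Cd68 and Gpnmb, in the dentate gyrus of mice given electroconvulsive stimulation (ECS). They were taken by name, and every probe set annotated to a single one of these symbols was used, which gave 16 of the 22626 probe sets on the array and 10 of 12393 genes. Cx3cr1 and Trem2 were each read by 2 probe sets, Csf1r and C1qb by 3 each, and the remaining 6 genes by 1 each. Of the 10 genes, 9 lay above the floor of 12 signal units on all 4 arrays, and Trem2 lay under it on 1 array.

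The dentate gyrus of C57Bl/6 mice (male, bought at 8 weeks of age by the study's methods) was measured on Affymetrix Mouse Genome 430A 2.0 arrays, with 1 array per group and the RNA of 3 mice pooled on each. The arrays are called sham (handled alike under isoflurane without current in 1 session and taken at 1 h), single ECS (taken at 1 h), 10 ECS (taken 48 h after the last session) and 11 ECS (taken at 1 h). By their titles, sham and single ECS mice had 1 session. The 10 ECS and 11 ECS arrays therefore also differ from both in the number of isoflurane and handling sessions and in the weeks these took. The part of these in any difference was not tested. The stimulation was given through ear clips on both sides at 25 mA for 1 s, with 100 pulses per s of 0.5 ms, in 4 sessions a week for up to 3 weeks. By the study's methods, mice of the 10 ECS group probably also had a sham session shortly before dissection, which their labels do not state. The groups follow the sample titles, which match the source and treatment fields, whereas for 3 of the 4 samples the description field states a different treatment. With 1 array of pooled RNA per group, the spread between animals was not measured and no test between groups was possible. The only error to hand was the disagreement between probe sets of the same gene, whose pooled SD was 0.29 on the log2 scale for single ECS over sham, 0.27 for 11 ECS over 10 ECS, 0.29 for 10 ECS over sham and 0.28 for 11 ECS over single ECS. A difference of 2-fold is used below as a limit of size and not as a test.

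Microglia are the resident macrophages of the brain. They depend on the receptor encoded by Csf1r for survival, they sense the neuronal chemokine fractalkine through the receptor encoded by Cx3cr1, and they are the main brain source of C1q, the molecule that starts the classical complement cascade and that can tag synapses for removal. TREM2 is a surface receptor for lipids and cell debris that signals through the adaptor TYROBP, and CD68 and GPNMB are glycoproteins of the endosomes and lysosomes that are prominent in phagocytes.

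The median MAS5 signal of an array lay between 56.3 and 69.3 units, 73.9% to 76.7% of probe sets lay above the floor, and the ratio of 3' to 5' Gapdh control signals lay between 0.963 and 1.06. The sham array was the brightest, so the median log2 ratio of all genes was -0.24 for single ECS over sham, -0.14 for 10 ECS over sham, -0.11 for 11 ECS over 10 ECS and 0.00 for 11 ECS over single ECS. Values called relative to all genes below have this median subtracted. The markers of microglia were measurable. Of 26 further genes of resting microglia, 23 were on the array and all of these lay above the floor on at least 1 array, with P2ry12, the purinergic receptor that steers microglial processes, at 192.6, 166.9, 184.0 and 165.5 units on the sham, single ECS, 10 ECS and 11 ECS arrays. Itgam, the integrin chain CD11b, was near the floor, at 12.1, 4.1, 13.1 and 9.3 units. Of 11 blood leukocyte genes, 7 lay at or under the floor on all 4 arrays, as did both erythroid genes measured, Hba-a1 for a haemoglobin chain and Alas2 for an enzyme of haem synthesis, and the 8 perivascular macrophage genes summed to between 180.9 and 195.0 units on each array.

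Sequence upstream of the gene starts is shown first, since most members are genes of one cell type. Promoter windows from RefSeq (GRCm38.p6) were held for 7 of the 10 genes, Aif1, C1qb, C1qc, Cd68, Cx3cr1, Gpnmb and Trem2, and not for C1qa, Csf1r and Tyrobp. C1qb, C1qc and C1qa lie next to each other on chromosome 4. The windows were searched on both strands for GAGGAA, the core of the motif of PU.1, the transcription factor that specifies macrophages and microglia. On the opposite strand it reads as TTCCTC. The 6 letters were found in 5 of the 7 windows (71.4%), against 9289 of 32851 promoter windows of the same 300-base length (28.3%). Printed below, 5′ to 3′ on each gene's own strand and without transcribed bases, are 100 bases from C1qb (chr4:136886201-136886300, minus strand) and C1qc (chr4:136893065-136893164, minus strand), the neighbouring C1q genes, from Trem2 (chr17:48346301-48346400, plus strand), the gene nearest the floor, and from Cx3cr1 (chr9:120068297-120068396, minus strand) and Gpnmb (chr6:49036418-49036517, plus strand), which were lower and higher on both arrays of repeated ECS. Capitals mark a match to the motif on either strand, and a match is a run of letters and not a shown binding site.
C1qb: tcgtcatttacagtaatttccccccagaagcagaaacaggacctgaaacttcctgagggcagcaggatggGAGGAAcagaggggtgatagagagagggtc
C1qc: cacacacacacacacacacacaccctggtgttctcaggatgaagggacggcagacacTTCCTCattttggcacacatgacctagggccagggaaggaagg
Trem2: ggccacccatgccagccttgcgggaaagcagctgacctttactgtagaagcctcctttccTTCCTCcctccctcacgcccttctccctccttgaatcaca
Cx3cr1: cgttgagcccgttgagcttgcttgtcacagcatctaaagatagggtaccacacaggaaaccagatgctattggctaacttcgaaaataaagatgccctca
Gpnmb: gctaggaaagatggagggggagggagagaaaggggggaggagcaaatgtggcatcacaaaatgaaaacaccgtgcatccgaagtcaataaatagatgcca
The match in C1qb begins 30 bases before the gene start and that in Trem2 40 bases before it, while the stretch of C1qc begins 250 bases before the start and its match 193 bases before it. Aif1 held a match 7 bases and Cd68 a match 225 bases before the start and another just after it. No match was found in the windows of Cx3cr1 and Gpnmb.

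Gpnmb had the largest measured ratios of the 10 members. Its signal was 28.4 units after sham, 23.1 after single ECS, 91.1 at 48 h after 10 ECS and 90.3 at 1 h after 11 ECS (probe set 1448303_at, the only one). Both arrays of mice with earlier ECS were therefore high and both arrays without it were low, and each of the high arrays was at least 3.18-fold above each of the low ones. It was 3.21-fold higher in 10 ECS than in sham (log2 1.68) and 3.91-fold higher in 11 ECS than in single ECS (log2 1.97), in 2 pairs that share no array. Both ratios far exceeded the pooled SD between probe sets of a gene. Only 7 of 10202 measured genes had a higher ratio in the 48 h pair and 4 of 9971 in the 1 h pair.
Gpnmb was the only one of the 10 members whose repeated arrays were both at least 2-fold above both others, a pattern held by 21 of 10449 genes (0.201%). Its signal was modest, and genes of a mean signal from 29.1 to 116 units, within 2-fold of its own, were at least 2-fold higher in 0.922% of cases for 10 ECS over sham and in 1.69% for 11 ECS over single ECS. With a floor of 50 units in place of 12, which raises both low arrays to 50, the log2 ratios of Gpnmb were 0.87 and 0.85, under 2-fold. Since RNA came from whole tissue, more or fewer cells of a type and more or less RNA per cell cannot be told apart, here and in all results that follow. The acute session made little difference to Gpnmb. Its log2 ratio was -0.30 for single ECS over sham and -0.01 for 11 ECS over 10 ECS, or -0.06 and 0.09 relative to all genes.

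Some markers of other cells were also higher on the repeated arrays. The lists of microglial, immune and other cell markers held 155 genes, each represented by its brightest probe set. Of these, Gfap and Col1a2 had both repeated arrays at least 2-fold above both others, and Ogn had both at least 2-fold below. Gfap, the astrocyte intermediate filament, gave 49.3, 45.6, 114.1 and 135.0 units on the sham, single ECS, 10 ECS and 11 ECS arrays. Col1a2, a fibrillar collagen chain of fibroblasts and meninges, gave 59.0, 60.6, 150.8 and 141.2 units, while Ogn, a proteoglycan in the same list, gave 240.7, 175.8, 33.4 and 21.5 units. The other Gfap probe set, 1426508_at, gave 56.3, 44.0, 85.9 and 109.4 units, only 1.53-fold higher in 10 ECS than in sham. That of Col1a2, 1423110_at, gave 15.7, 7.5, 24.3 and 17.8 units, near the floor and 1.55-fold higher in 10 ECS than in sham. That of Ogn, 1419662_at, gave 100.5, 101.7, 16.8 and 5.6 units. Genes of the astrocyte and meningeal lists thus moved with the same split of arrays, Gfap and Col1a2 upwards and Ogn downwards. Aqp4, the water channel of astrocyte endfeet, gave 1076.5, 990.5, 1400.6 and 1372.8 units, and Dcn, a meningeal proteoglycan, 86.2, 87.6, 131.6 and 122.7 units. In all, 3 of 8 astrocyte genes (Aqp4, Gfap, Slc1a2), 3 of 7 meningeal genes (Col1a1, Col1a2, Dcn), 3 of 8 perivascular macrophage genes (F13a1, Lyve1, Mrc1) and 3 of 7 endothelial genes (Cldn5, Kdr, Pecam1) were higher on both repeated arrays than on both others, against 8.72% of 10449 genes. Lyve1 met this pattern narrowly and near the floor, at 15.7, 13.5, 17.1 and 15.8 units. Col1a1 gave 4.1, 10.2, 26.9 and 20.1 units, under the floor on the sham and single ECS arrays. Its other probe set, 1423669_at, gave 15.7, 0.7, 15.7 and 1.8 units and did not share the pattern. In the same lists Slc1a3 (astrocyte), Ogn (meningeal) and, by its brightest probe set, Flt1 (endothelial) were lower on both repeated arrays, against 19.4% of 10449 genes. The 8 astrocyte genes together summed to 12424.7, 10931.5, 11017.2 and 11290.5 units in that order of arrays and the 7 meningeal genes to 665.2, 492.8, 527.5 and 474.4 units, sums that are set mostly by the brightest genes of each list. The part of these cells in the Gpnmb signal was not tested.

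**Figure D1:**
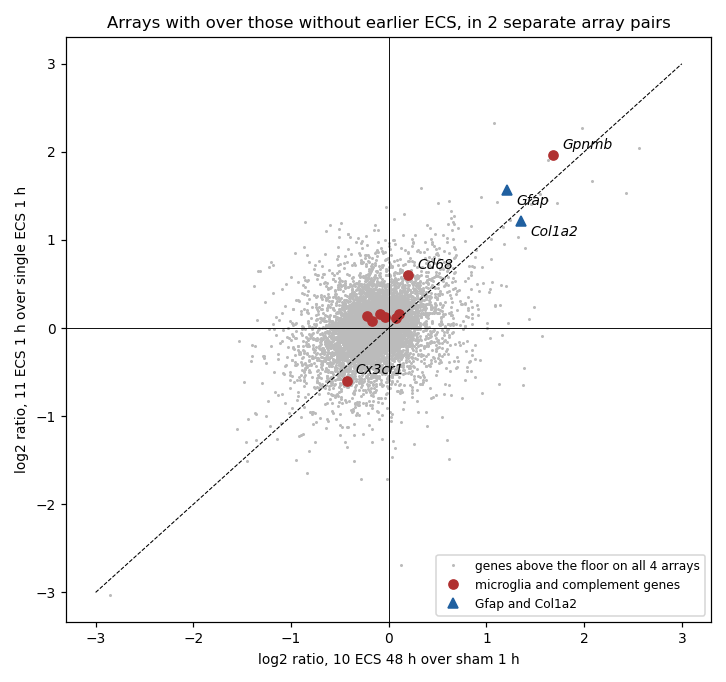
Log2 ratio of each gene in the 1 h pair (11 ECS over single ECS, vertical axis) against the 48 h pair (10 ECS over sham, horizontal axis) for 8999 genes above the floor on all 4 arrays (grey), the 9 members among them (red) and 2 markers of other cells (blue triangles); the dashed line marks equal ratios. Gpnmb lies at 1.68 and 1.97, beyond Gfap and Col1a2, Cx3cr1 lies at -0.43 and -0.60, and most other members lie near 0 on both axes.

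Cx3cr1, the fractalkine receptor, was lower on both arrays of repeated ECS. Its signal was 168.4 units after sham, 171.5 after single ECS, 124.9 after 10 ECS and 113.5 after 11 ECS (probe set 1450020_at), so that both arrays without earlier ECS lay above both with it. It was 1.35-fold lower in 10 ECS than in sham (log2 -0.43) and 1.51-fold lower in 11 ECS than in single ECS (log2 -0.60). Relative to all genes these ratios were -0.30 and -0.60, about the size of the probe set SD in the first pair and above it in the second. In the second pair 4.03% of measured genes had a lower ratio. Repeated arrays below both others were a common pattern, held by 19.4% of 10449 genes, and among the members by Cx3cr1 and Trem2. A single session left Cx3cr1 close to sham, with a log2 ratio of 0.03, and the 11th session gave -0.14. The other Cx3cr1 probe set, 1450019_at, read between 4.4 and 8.7 units and lay under the floor on all 4 arrays, so it gives no ratio. Cx3cl1, which encodes fractalkine itself, was read at 1175.8, 1281.1, 1069.1 and 1143.4 units on the sham, single ECS, 10 ECS and 11 ECS arrays by its brightest probe set, none of them 2-fold from another. Its probe set 1421610_at gave 40.7, 79.4, 33.6 and 32.5 units, or 2.44-fold lower in 11 ECS than in single ECS, and 1415804_at gave 55.9, 77.2, 61.7 and 89.7 units, so the probe sets differ in direction for that pair.

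Csf1r, the receptor for the growth factors CSF1 and IL-34, differed little. Its brightest probe set, 1419872_at, gave 1217.7 units after sham, 1088.5 after single ECS, 1142.3 after 10 ECS and 1214.1 after 11 ECS, a range of 1.12-fold. The probe set 1419873_s_at gave 317.9, 353.5, 270.9 and 278.9 units and 1423593_a_at gave 200.2, 186.3, 158.2 and 160.5 units in the same order. Both of these dimmer probe sets were lower on the repeated arrays than on either of the others, and the brightest one was not. For 11 ECS over single ECS the 3 probe sets read 0.16, -0.34 and -0.22 on the log2 scale, so the direction for Csf1r depends on the probe set. Aif1, which encodes the actin-binding protein IBA1 used to stain microglia, gave 57.9, 55.8, 56.5 and 60.8 units on the sham, single ECS, 10 ECS and 11 ECS arrays, a range of 1.09-fold and the narrowest of the members.

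The 3 genes for the C1q chains stayed within 1.27-fold over the 4 arrays, and each was highest after 11 ECS. C1qa gave 297.0 units after sham, 314.8 after single ECS, 319.3 after 10 ECS and 351.6 after 11 ECS. C1qb, at its brightest probe set 1417063_at, gave 263.0, 280.6, 277.2 and 304.6 units, and C1qc gave 134.9, 143.0, 119.4 and 151.6 units in the same order. Sham was the lowest array for C1qa and C1qb, and 10 ECS was the lowest for C1qc. The other C1qb probe sets gave 204.1, 190.1, 181.7 and 212.8 units (1434366_x_at) and 183.6, 189.3, 208.6 and 205.7 units (1437726_x_at), and of these only the first was also highest after 11 ECS. The median log2 ratio of the C1q genes relative to all genes was 0.32 for single ECS over sham, 0.25 for 11 ECS over 10 ECS, 0.21 for 10 ECS over sham and 0.12 for 11 ECS over single ECS. All but the first were below the probe set SD, and the ratios themselves lay between -0.18 and 0.34.

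Trem2 was too dim for a firm value. Its brighter probe set, 1421792_s_at, gave 30.8 units after sham, 26.6 after single ECS, 5.4 after 10 ECS and 21.5 after 11 ECS. The 10 ECS array alone lay under the floor, so Trem2 was at least 2.57-fold lower in 10 ECS than in sham and at least 1.79-fold higher in 11 ECS than in 10 ECS. The second probe set, 1421226_at, gave 15.9, 1.9, 2.5 and 13.5 units in that order, and there the single ECS array was under the floor as well. With the median over both probe sets, Trem2 was no longer 2-fold lower in 10 ECS than in sham (log2 -0.88). Tyrobp, the adaptor of TREM2, gave 247.8 units after sham, 177.6 after single ECS, 212.8 after 10 ECS and 194.6 after 11 ECS and was not low on the 10 ECS array. It was 1.40-fold lower in single ECS than in sham (log2 -0.48), or -0.24 relative to all genes, which was within the probe set SD.

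Cd68, a lysosomal protein of phagocytes, gave 49.1 units after sham, 38.9 after single ECS, 56.3 after 10 ECS and 58.9 after 11 ECS. Both repeated arrays were above both others, as for C1qa and Gpnmb and for 8.72% of 10449 genes. Cd68 was 1.15-fold higher in 10 ECS than in sham (log2 0.20) and 1.51-fold higher in 11 ECS than in single ECS (log2 0.60), and 413 of 9971 genes had a higher ratio in the second pair. With a floor of 50 units, which raises its sham and single ECS signals to 50, the log2 ratio of the second pair was 0.24.

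**Figure D2:**
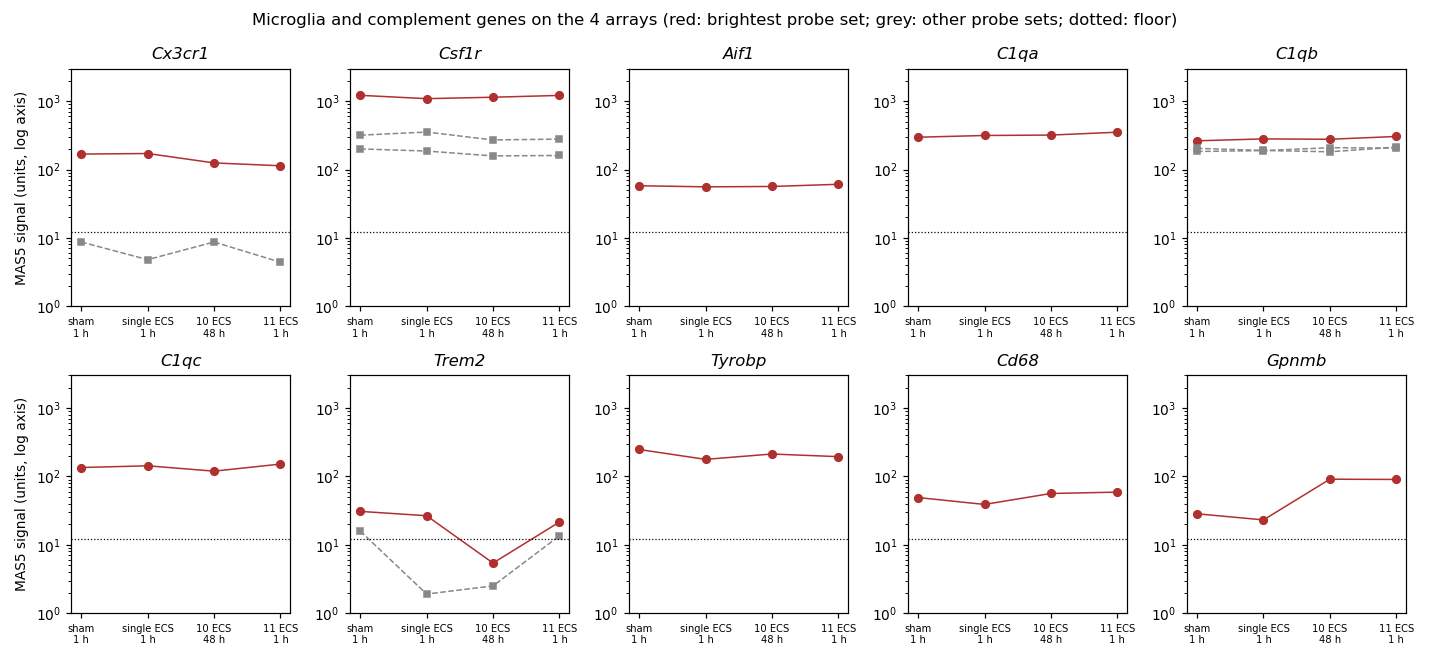
MAS5 signal (units, log axis) of every probe set of the 10 genes on the sham, single ECS, 10 ECS and 11 ECS arrays, 1 array each, with the brightest probe set in red, others in grey and the floor of 12 units dotted. Gpnmb steps up on both repeated arrays, Cx3cr1 is lower there, the C1q genes are nearly level, and the lower Cx3cr1 probe set lies under the floor throughout.

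Counted over the 10 members, few differed by 2-fold in any comparison. For single ECS over sham, none was at least 2-fold higher and none lower, where 1.2% of 10133 genes were higher and 2.89% lower. For 11 ECS over 10 ECS again none was past 2-fold in either direction, against 1.06% of genes higher and 1.21% lower. For 10 ECS over sham, Gpnmb was higher and Trem2 lower, against 0.716% and 1.22% of genes. For 11 ECS over single ECS, Gpnmb was higher and no member was lower, against 0.832% and 0.782% of genes. The split of these calls over all genes depended on scaling: for single ECS over sham it was 122 higher and 293 lower as deposited and 217 higher and 89 lower after setting all array medians equal, while the members' own counts were the same under both. For 11 ECS over 10 ECS it was 106 higher and 122 lower as deposited and 153 higher and 79 lower after that scaling, and for 10 ECS over sham 73 higher and 124 lower as deposited and 96 higher and 74 lower after it.

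The acute response of the members was small at both stages of treatment. For single ECS over sham their median log2 ratio was -0.11, or 0.13 relative to all genes, and 7 of the 10 lay above the median of all genes. For 11 ECS over 10 ECS the median was 0.10, or 0.20 relative to all genes, and 8 lay above it. Single ECS over sham and 11 ECS over 10 ECS share no array, and 6 of the 9 members above the floor on all arrays (66.7%) lay on the same side of the median of all genes in both, where 66.2% of 8999 genes did. The difference between the 2 responses, 11 ECS over 10 ECS minus single ECS over sham, was 0.40 for Cd68, 0.35 for Tyrobp, 0.29 for Gpnmb, 0.26 for C1qc, 0.25 for Csf1r, 0.16 for Aif1, 0.06 for C1qa, 0.04 for C1qb and -0.16 for Cx3cr1 on the log2 scale. Trem2 apart, no member thus had an acute response at the 11th session that differed by 2-fold from that at the first. For Trem2 the difference was at least 1.05, a bound because its 10 ECS signal of 5.4 units lay under the floor.

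The comparisons of earlier ECS at 48 h and at 1 h likewise share no array with each other, although each shares both its arrays with those above. The median of the members was -0.06 for 10 ECS over sham and 0.13 for 11 ECS over single ECS, or 0.07 and 0.13 relative to all genes. In both pairs 7 of 9 members (77.8%) lay on the same side of the median of all genes, where 60.4% of 8999 genes did. Within 1 probe set SD of the median of all genes lay 7 of the 10 members for single ECS over sham, 8 for 11 ECS over 10 ECS, 6 for 10 ECS over sham and 6 for 11 ECS over single ECS.

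**Figure D3:**
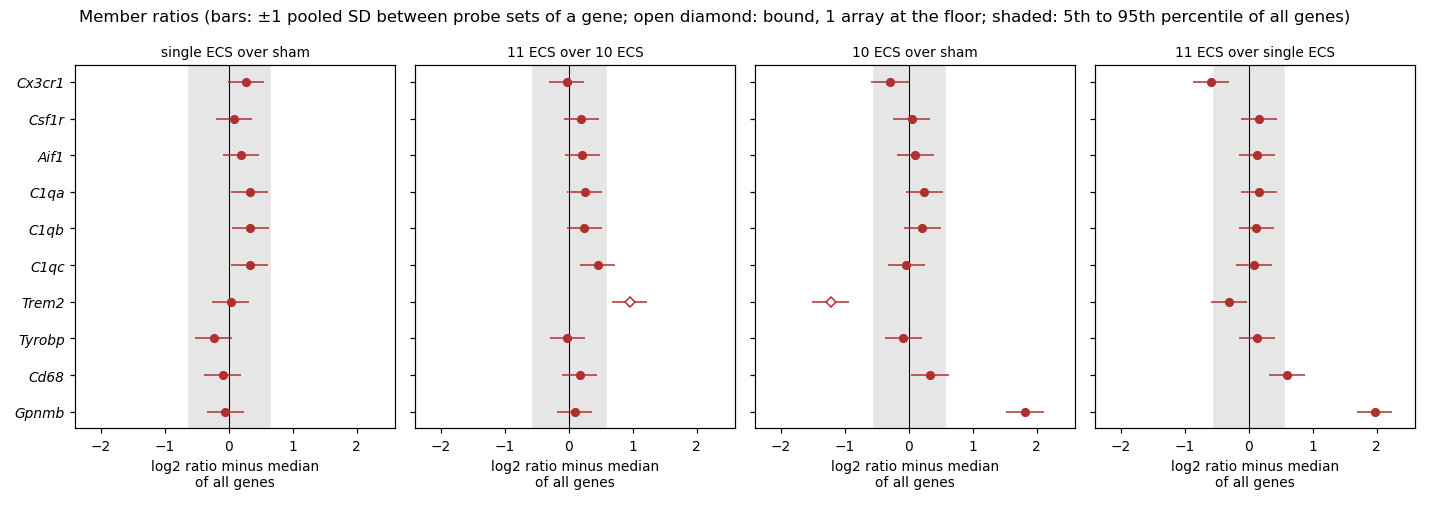
Log2 ratio of each member minus the median of all genes (horizontal axis) in the 4 comparisons, with bars of 1 pooled SD between probe sets of a gene, the 5th to 95th percentile of all genes shaded, and open diamonds for ratios that are bounds because 1 array was at the floor. Gpnmb at 1.82 and 1.97 and Trem2 at -1.22 stand outside the shaded range in the comparisons of earlier ECS, as does Trem2 at 0.95 for 11 ECS over 10 ECS, and Cx3cr1 (-0.60) and Cd68 (0.60) just outside it in the last.

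The further genes of resting microglia also differed little. None of the 23 on the array was past 2-fold in any of the 4 comparisons. Few genes of any kind were, with 0.716% to 1.2% of all genes higher and 0.782% to 2.89% lower. Their median relative to all genes was 0.16 for single ECS over sham, 0.10 for 11 ECS over 10 ECS, 0.08 for 10 ECS over sham and 0.05 for 11 ECS over single ECS. This is the median of the 23 genes. The ratio farthest from 0 among the brighter genes was that of Olfml3, a secreted protein of microglia, at 69.9 units in 11 ECS and 43.3 units in single ECS (1.61-fold higher). Selplg, the P-selectin ligand, was at 103.4 units in 10 ECS and 151.8 in sham (1.47-fold lower). Tmem119, a microglial surface marker, gave 79.8, 91.4, 67.8 and 85.4 units on the sham, single ECS, 10 ECS and 11 ECS arrays. Cx3cr1 itself was less than 2-fold lower, and 6 of the 23 genes, Cd53, Entpd1, Itgb2, Selplg, Spi1 and Tgfbr1, were likewise lower on both repeated arrays than on both others, where 19.4% of all genes were. For Entpd1 the difference was slight, at 30.1, 30.1, 27.5 and 27.5 units. Its other probe set, 1450939_at, gave 15.5, 28.0, 14.9 and 21.1 units and did not share the pattern. Spi1 was near the floor, at 15.5, 19.7, 14.8 and 11.5 units. Cd53, a tetraspanin of leukocytes, gave 109.2, 103.9, 81.6 and 97.0 units, and Itgb2, an integrin chain shared by several leukocyte receptors, 42.1, 37.9, 33.6 and 27.7 units in the same order. Irf8, Olfml3 and Sall1, 3 of the 23 genes, were higher on both repeated arrays, where 8.72% of all genes were. Sall1 gave 1.9, 10.8, 16.0 and 16.9 units, under the floor on the sham and single ECS arrays. Irf8 gave 18.8, 16.6, 27.1 and 26.4 units. Its other probe set, 1448452_at, gave 14.4, 3.3, 9.1 and 14.6 units and did not share the pattern.

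Genes that feed microglia or hold them in check showed one larger difference. Csf1, a ligand of the CSF1 receptor, gave 152.1 units after sham, 56.5 after single ECS, 79.0 after 10 ECS and 70.2 after 11 ECS, so that the sham array was high and the 3 ECS arrays were low. It was 2.69-fold lower in single ECS than in sham and 1.93-fold lower in 10 ECS than in sham. A second probe set, 1448914_a_at, gave 57.3, 26.6, 34.8 and 28.4 units and had the same order of arrays (log2 -1.11 for single ECS over sham), and the third above the floor, 1425154_a_at, gave 23.0, 12.9, 12.2 and 20.8 units. All of these ratios rest on the same sham array. Il34, the other ligand of that receptor, was 1.20-fold lower in 10 ECS (133.1 units) than in sham (159.2 units). That is a log2 ratio of -0.26, where the median of all genes was -0.14. Cd47 and Cd200, neuronal signals that restrain microglia, were 1.43-fold lower (1363.3 units in single ECS, 1945.5 in sham) and 1.35-fold lower (374.1 units in single ECS, 506.5 in sham). Their log2 ratios were -0.51 and -0.44, where the median of all genes was -0.24. Besides Csf1, only Syk, a kinase that acts downstream of TYROBP, was past 2-fold in this list of 10, at 12.5 units in single ECS, barely above the floor, and 25.2 units in sham. In that comparison 2.89% of all genes were at least 2-fold lower. Sirpa, the receptor for CD47, was 1.24-fold higher in 11 ECS (959.2 units) than in single ECS (770.7 units).

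Among 24 genes of phagocytic and activated microglia on the array, Mertk stood out on the repeated arrays. It encodes a receptor for the uptake of dying cells, which astrocytes also carry, and gave 411.1 units after sham, 322.9 after single ECS, 212.1 after 10 ECS and 241.3 after 11 ECS. It was 1.94-fold lower in 10 ECS than in sham and 1.34-fold lower in 11 ECS than in single ECS. Fcgr2b, the inhibitory Fc receptor, was 1.74-fold lower in single ECS (66.9 units) than in sham (116.2 units) and 1.65-fold higher in 11 ECS (110.3 units) than in single ECS, but its dimmer probe sets did not all share that direction. Lyz2, the lysozyme of myeloid cells, was 1.59-fold higher in 10 ECS (76.4 units) than in sham (47.9 units) and 1.68-fold lower in 11 ECS (45.6 units) than in 10 ECS. Axl, a receptor related to Mertk, was 1.24-fold lower in single ECS (103.1 units) than in sham (128.1 units). That is a log2 ratio of -0.31, close to the median of all genes of -0.24. Cd9, a tetraspanin, was 1.42-fold higher in 11 ECS (518.4 units) than in single ECS (365.6 units). The only gene of this list past 2-fold was Itgax, the integrin chain CD11c, which is also in the complement list as part of a complement receptor. Its signal was low, at 27.4, 10.8, 12.4 and 20.0 units from sham through single ECS and 10 ECS to 11 ECS, or at least 2.28-fold lower in single ECS and 2.21-fold lower in 10 ECS than in sham. In those comparisons 2.89% and 1.22% of all genes were at least 2-fold lower. Of the 24 genes, 6 (Cd9, Ch25h, Ctsl, Fcgr3, Lgals3 and Timp2) were higher on both repeated arrays than on both others. Apoe, Cd74, Fcgr1 and Mertk were lower on both, and the shares of all genes were 8.72% and 19.4%. With the floor of 12 units none of the 6 reached 2-fold, whereas Gpnmb was 3.21-fold higher in 10 ECS than in sham. Ctsl gave 934.7, 828.5, 974.4 and 961.0 units and Fcgr3 82.5, 87.5, 96.4 and 90.0 units on the sham, single ECS, 10 ECS and 11 ECS arrays. The Timp2 probe sets 1433662_s_at and 1450040_at were instead lower on both repeated arrays. Among the 6, Lgals3, a galectin of phagocytes, gave 8.7, 9.4, 16.3 and 20.4 units in the same order, the first pair of values being under the floor.

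**Figure D4:**
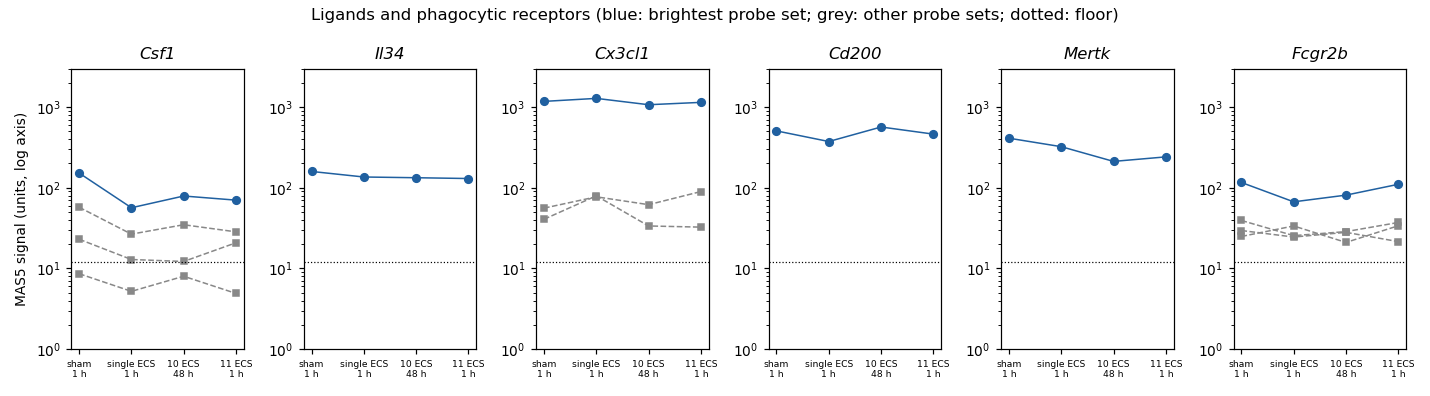
MAS5 signal (units, log axis) of 4 genes for ligands of microglial receptors and 2 phagocytic receptor genes on the sham, single ECS, 10 ECS and 11 ECS arrays, 1 array each, with the brightest probe set in blue, others in grey and the floor dotted. Csf1 is highest on the sham array in both of its brighter probe sets, and Mertk is lowest on the 10 ECS and 11 ECS arrays.

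Of 38 complement genes outside the members, 29 were on the array and 10 of these lay at or under the floor on all 4 arrays. Besides Itgax, Cd46, a membrane cofactor that inactivates complement, was 2.00-fold lower in 11 ECS (16.6 units, near the floor) than in 10 ECS (33.2 units). In that comparison 1.21% of all genes were at least 2-fold lower. No complement gene was at least 2-fold higher in any comparison, where 0.716% to 1.2% of all genes were. Masp1, a protease of the lectin pathway, was 1.97-fold lower in 10 ECS (28.1 units) than in sham (55.3 units), and its next brightest probe sets read 21.6 against 38.5 and 39.1 against 38.2 units. Clu, which encodes clusterin, an inhibitor of the terminal pathway made by astrocytes, was 1.12-fold lower in 10 ECS (4335.6 units) than in sham (4859.6 units). That is a log2 ratio of -0.16, close to the median of all genes of -0.14. Cr1l, a membrane regulator of complement, was 1.76-fold lower in 11 ECS (70.3 units) than in 10 ECS (123.6 units). Cd59a, the inhibitor of the membrane attack complex, was 1.42-fold lower in single ECS (100.6 units) than in sham (143.0 units) by its brighter probe set. That is a log2 ratio of -0.51, where the median of all genes was -0.24. Its other probe set, 1429830_a_at, read 73.4 units in single ECS and 76.0 in sham (log2 -0.05). Serping1, the C1 inhibitor, was 1.27-fold higher in 11 ECS (81.0 units) than in single ECS (63.6 units).

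Inflammatory cytokine genes were mostly dim, Il18 apart. Of 13 on the array, 6 lay at or under the floor on all 4 arrays, among them Tnf, Il6 and Il1a. Il18 gave 440.1, 407.6, 430.8 and 454.2 units and Ccl4, a chemokine, 50.7, 40.9, 46.7 and 50.7 units on the sham, single ECS, 10 ECS and 11 ECS arrays, with little difference between them. Ccl12, a monocyte chemokine, was at 27.8 units in 11 ECS and at 7.3 units, under the floor, in single ECS, at least 2.32-fold higher.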

How the data were processed

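The authors pooled dentate gyrus RNA of 3 mice per group, labelled 100 ng with a 3' in vitro transcription kit and hybridised 1 Mouse Genome 430A 2.0 array per group. The deposited values are linear intensity values, the MAS5 signals of the submitters' processing notes (no version given). How the authors scaled the arrays to each other is not given in those sources or in the methods. No column was left unused.

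Probe sets were named from the platform annotation: 20380 had 1 symbol, 691 several and 1555 none, and only the first kind was used. Where several probe sets read a gene, the one of highest mean signal stood for it. Signals were raised to a floor of 12 units, the 25th percentile of all signals, and log2 ratios were taken. A ratio with 1 array at the floor is a bound, and with both there is none. Percentages of all genes count genes with a ratio, or, for patterns over 4 arrays, genes above the floor on at least 1. The spread was the pooled SD of log2 ratios between probe sets of the same gene.

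The members and all gene lists were chosen with earlier results of these data known. The text names every member and, per list of microglial and immune genes and comparison, up to 3 genes farthest from 0 among those with at least 48 units on the brighter array, some given by range only. Syk, Itgax, Cd46, Ccl12, P2ry12, Tmem119, Cx3cl1, Itgb2, Itgam, Lgals3, Gfap, Col1a2, Ogn, Aqp4, Dcn, Ttr, Kl, Folr1, Otx2 and the genes named by their pattern over the 4 arrays were added after their values were seen. Alternatives were a floor of 50, no floor, the median over probe sets, median scaling and quantile normalization, and, added after seeing the data, a floor of 50 with median scaling. The ratio calculation was tested on simulated data. Python 3.11.15, pandas 2.3.3, numpy 2.4.6 and matplotlib 3.10.9 were used.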

Additional observations from a re-analysis of the deposited data

How the results depend on the processing

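Setting array medians equal and quantile normalization left all 17 counts and medians over the members within their limits, and no ratio of 2-fold or more changed sign under any alternative. Under median scaling the median of all genes for single ECS over sham was 0.05 on the log2 scale in place of -0.24, and the members' ratios in that comparison shifted with it: Csf1r was then 0.14 in place of -0.16, Aif1 0.25 in place of -0.05, Trem2 0.09 in place of -0.21 and Gpnmb 0.00 in place of -0.30. Quantile normalization turned Aif1 to 0.24 and Trem2 to 0.07 there, and other ratios near 0 changed sign with scaling in other comparisons. With a floor of 50 units, the members at least 2-fold higher numbered 0 for 10 ECS over sham and 0 for 11 ECS over single ECS, those at least 2-fold lower in 10 ECS over sham numbered 0, and the members' median for single ECS over sham was 0.26 relative to all genes. Gpnmb was then 0.87 for 10 ECS over sham and 0.85 for 11 ECS over single ECS, since its lower signals are raised to the floor by construction. With that floor and median scaling together, chosen after seeing the data, the same 3 counts were 0 and the median was 0.27. Without a floor, 1 member, Trem2, was at least 2-fold higher in 11 ECS over 10 ECS (1.99 on the log2 scale) and its ratio for 10 ECS over sham was -2.51. With the median over probe sets, 0 members were at least 2-fold lower in 10 ECS over sham (Trem2 -0.88), and Csf1r was -0.22 for 11 ECS over single ECS.

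Arrays were not left out in turn, since each group had 1. No paired analysis was possible because each group had 1 array and no result comes from a test. Low signals limit Gpnmb, whose 2-fold differences are lost with a floor of 50, as well as Trem2, Itgax and most of the cytokine genes. They also limit Cd68, whose log2 ratio for 11 ECS over single ECS was 0.24 with that floor in place of 0.60.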

Other observations

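Markers of other cells also differed between the arrays. Ttr, the transthyretin gene that is intense in choroid plexus, gave 67.2, 215.9, 103.4 and 76.9 units on the sham, single ECS, 10 ECS and 11 ECS arrays, and was highest after single ECS. Other genes of the choroid plexus list did not share this. Kl gave 74.3, 38.4, 26.6 and 25.2 units, Folr1 gave 14.7, 10.9, 16.7 and 13.9 units, close to the floor, and Otx2 lay under it. Among the 7 genes of dentate granule neurons, Calb1, a calcium-binding protein of mature granule cells, gave 3234.2, 2747.1, 1507.0 and 1303.6 units in that order, lower on both arrays of repeated ECS. Perivascular macrophage genes gave a mixed picture. Cd163, a haemoglobin scavenger receptor, was 2.32-fold lower in single ECS (13.2 units, barely above the floor) than in sham (30.6 units). That is a log2 ratio of -1.21, where the median of all genes was -0.24. Mrc1, the mannose receptor, gave 26.2, 27.9, 34.7 and 38.2 units from sham through single ECS and 10 ECS to 11 ECS. None of these values has a replicate.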
